A study of Macaca mulatta with 8 samples.

Results

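Interferon-stimulated antiviral genes were followed in the RNA of primary rhesus macaque (Macaca mulatta) microglia, the resident macrophages of the brain, that had been exposed to ultrapure lipopolysaccharide (uLPS), a bacterial agonist of Toll-like receptor TLR4, with or without MRS2578, an antagonist of the nucleotide receptor P2RY6. The genes were taken by symbol from a list of 47 gene symbols, and 41 of these symbols were found among the 35432 genes of the count data. The other 6 symbols (IFIH1, USP18, GBP1, GBP2, GBP4 and GBP5) did not occur as symbols there. Microglia came from subcortical white matter of 4 animals: R07110, a male of 13 years, R12016, a male of 9 years, R02046, a female of 19 years, and R14143, a female of 6 years. Each animal gave 1 library of microglia exposed to 10 µg/mL uLPS alone and 1 library of microglia that received 5 µM MRS2578 1 h before the same dose of uLPS. All cells had been cultured for 8 days with serum and M-CSF, uLPS was added at day 7, and RNA was isolated 16 h later. No library of cells without uLPS was analysed here, so the values below describe levels in uLPS-exposed microglia and the difference with MRS2578, not the induction of these genes by uLPS. MRS2578 was dissolved in DMSO, and as a model of P2RY6 blockade it is limited by not being entirely specific for this receptor.

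Interferon-stimulated genes (ISGs) are switched on when type I interferon binds its receptor IFNAR1/IFNAR2, the kinases JAK1 and TYK2 are activated, and factors that include STAT2 and IRF9 bind a DNA element called the interferon-stimulated response element (ISRE). Their products sense or degrade viral RNA, block viral entry, translation or release, or modify other proteins. In macrophages and microglia, TLR4 can start this program itself, through the adaptor TICAM1 (TRIF), the kinase TBK1 and IRF3, which lead to production of interferon beta.

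The label of 1 animal is in doubt. The scaled counts that the study itself lists for a subset of genes could be matched to the libraries, and 6 of its 8 columns matched the library with the same label, whereas the 2 columns of R02046 matched the library with the opposite label. The deposited labels were kept, and results are also given with the libraries of R02046 exchanged and without R02046. Total counts ranged from 9231109 to 32790348 per library, and the 41 ISGs together took 0.904% to 2.45% of the counts. The lowest count of any ISG in any library was 23. Levels are given as CPM, counts relative to the library total after TMM scaling. Of 14 listed microglia and macrophage markers, 13 were found by symbol (all but C1QA). Of these, 11 were above 1 CPM in every library, including CSF1R, ITGAM and P2RY12, whereas CX3CR1 was at or below 2.2 CPM and TMEM119 at or below 0.3 CPM. None of the lymphocyte or neuron markers found reached 1 CPM in any library, the lymphocyte marker GNLY not being found by symbol. Of 5 listed plasmacytoid dendritic cell markers, 3 were found (not LILRA4 and IL3RA). Of these, CLEC4C had no counts and GZMB stayed below 1 CPM, whereas TCF4, which other cells also express, made up nearly all of a summed level of 58.0 to 86.0 CPM.

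Because ISGs are defined by a shared route of control, their promoters were read from the macaque genome (Mmul_10, RefSeq annotation). The window ran from 250 bases before to 50 bases after a single annotated start site per gene. This site was the start of the most annotated transcripts, and the most upstream such start in a tie. Other annotated starts were not searched (XAF1 has 6 in all and MX1 has 3). The letters searched were GAAANNGAAA on either strand for the ISRE and TTCNNNGAA for the gamma-activated site (GAS), an element of genes that respond to interferon gamma. All 41 ISGs had a window. An ISRE match was found in 19 of 41 windows (46.3%), against 3.60% of 20787 windows of protein-coding genes. A GAS match was found in 7 of 41 windows (17.1%), against 6.86% of all windows. The letters of the ISRE and GAS differ, although their matches can overlap, and a match describes the letters only. An ISG without a match may hold an ISRE outside the window or with other letters. The stretches below were chosen to show ISRE matches both in ISGs with large differences with MRS2578 (ISG15, IFI27, IFIT2) and in ISGs with small ones (BST2, PARP14, SAMD9L). Each reads 5′ to 3′ on the strand of its gene and lies upstream of the start site, with ISRE letters in capitals, overlapping matches being joined. They lie at chr1:223405151-223405210 (minus strand, ISG15), chr7:156288934-156288993 (plus strand, IFI27), chr9:89563405-89563459 (plus strand, IFIT2), chr19:16907685-16907744 (minus strand, BST2), chr2:153638740-153638799 (minus strand, PARP14) and chr3:112975946-112976005 (plus strand, SAMD9L).
ISG15: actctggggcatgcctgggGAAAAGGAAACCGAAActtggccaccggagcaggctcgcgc
IFI27: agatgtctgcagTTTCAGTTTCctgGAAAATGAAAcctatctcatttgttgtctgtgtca
IFIT2: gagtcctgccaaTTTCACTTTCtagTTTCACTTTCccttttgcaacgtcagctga
BST2: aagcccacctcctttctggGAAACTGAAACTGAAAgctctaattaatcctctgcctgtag
PARP14: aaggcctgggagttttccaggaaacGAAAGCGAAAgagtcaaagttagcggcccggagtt
SAMD9L: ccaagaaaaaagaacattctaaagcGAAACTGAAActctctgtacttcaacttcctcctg
ISG15, IFI27, IFIT2 and BST2 each held 2 matches in these stretches, in ISG15 and BST2 overlapping and in IFI27 and IFIT2 side by side, while PARP14 and SAMD9L held 1 each.

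**Figure D1:**
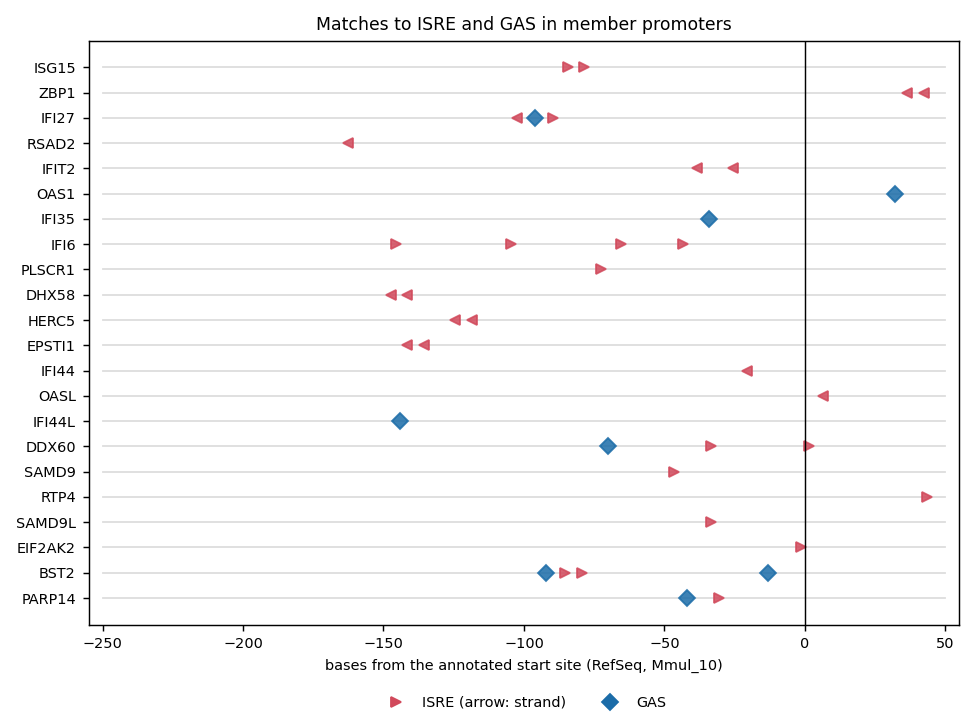
Position of ISRE matches (triangles pointing along the strand of the match) and GAS matches (diamonds) in bases from the annotated start site, for the 22 ISGs with any match, ordered from the lowest log2 fold change with MRS2578 at the top. ISRE matches lie between -167 and 48, in genes at the top and at the bottom of the order.

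With uLPS alone, ISGs covered a wide range of levels. Divided by the length of annotated exons, IFI6, a small mitochondrial protein, was highest at 2471 ± 645 CPM per kb (SD, n = 4), followed by IFI27 at 767 ± 526, ISG15 at 671 ± 665, BST2 at 644 ± 96.0 and GBP3 at 453 ± 321 CPM per kb. At the other end were SAMD9 at 6.32 ± 5.27, ZBP1 at 6.19 ± 6.48 and RTP4 at 5.24 ± 2.17 CPM per kb. The 4 animals ranged from 1948 to 3411 CPM per kb for IFI6, above the ranges of ISG15 (207 to 1657) and IFI27 (248 to 1491), which were the next highest. From IFI27 downward the ranges of neighboring ISGs mostly overlapped, so that their order is not resolved beyond the spread between animals. Lengths are those of annotated exons, which can miss ends of transcripts.

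**Figure D2:**
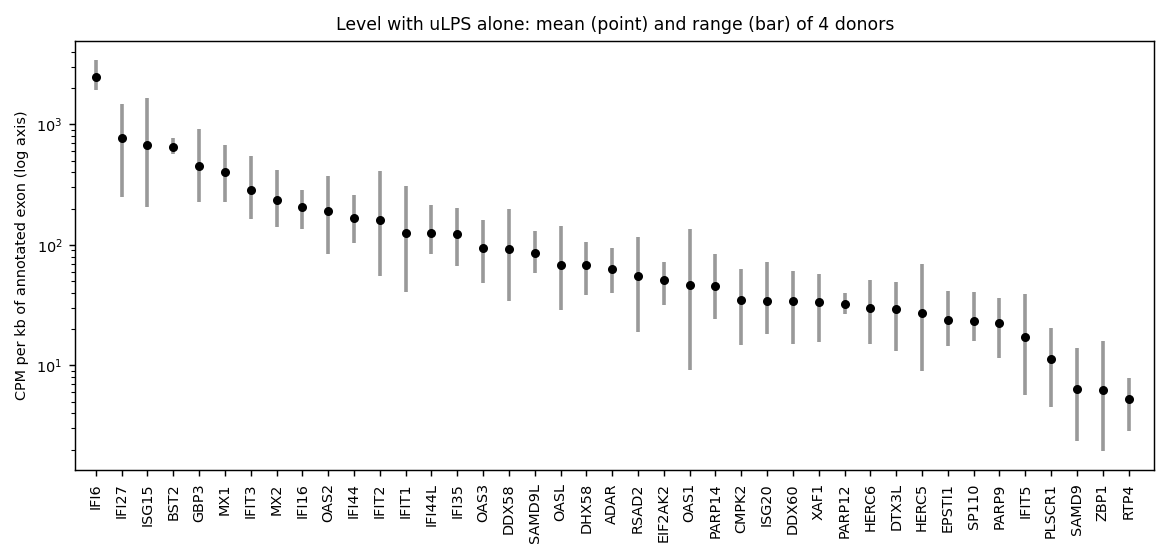
CPM per kb of annotated exon with uLPS alone (log axis) for the 41 ISGs in order of their mean over 4 animals (point), with the lowest and highest animal as a bar. IFI6 stands above all others, and the bars of most neighbors overlap.

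In the presence of MRS2578, most ISGs were lower in 3 animals and slightly higher in R02046 as labelled. In R07110, 40 of 41 ISGs were lower with MRS2578 than with uLPS alone, the median difference being -0.73 on the log2 CPM scale (all genes tested: 49.7% lower, median 0.0019). In R12016, 41 of 41 were lower, with a median of -0.78 (all genes: 50.2% lower). In R14143, 31 of 41 were lower, with a median of -0.26 (all genes: 53.2% lower). In R02046, only 6 of 41 were lower and 35 were higher, with a median of 0.28 (all genes: 50.0% lower). Hence 30 of 41 ISGs (73.2%) were lower in R07110, R12016 and R14143 alike, against 19.8% of all genes tested, and 27 of these 30 were higher in R02046 (all genes: 13.2%). ISG20, IFI35 and OASL were lower in all 4 animals as labelled, and these 3 of 41 ISGs (7.32%) were close to the share of all genes (6.49%). With R02046 exchanged, the 27 ISGs (65.9%) were lower in all 4 animals, against the same 13.2% of all genes. For no ISG were the CPM values of the 4 libraries with MRS2578 all below or all above those of the 4 with uLPS alone, against 1.08% of all genes tested.

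**Figure D3:**
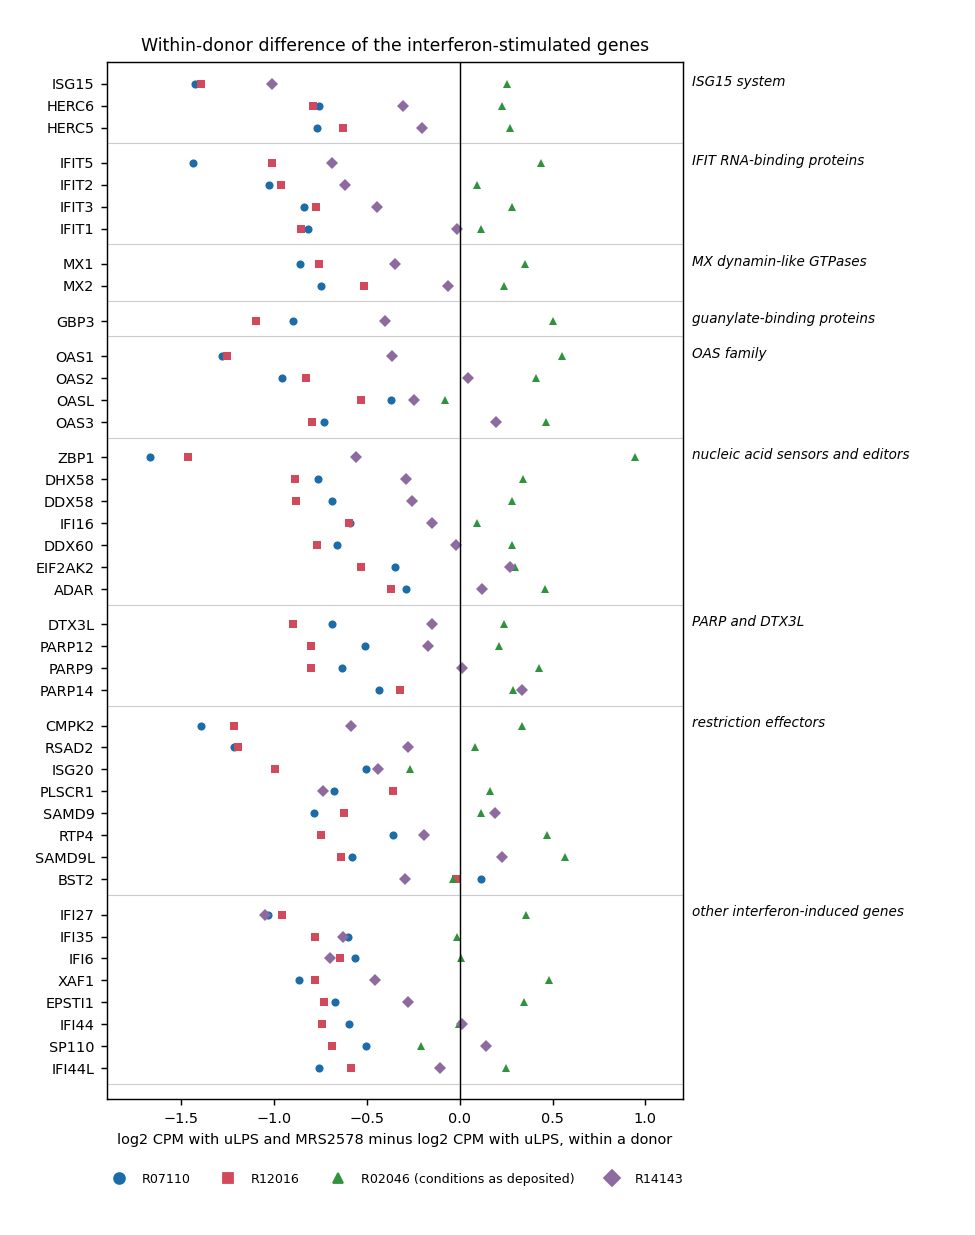
Within-animal difference in log2 CPM (uLPS with MRS2578 minus uLPS alone) of each ISG, grouped by role, with 1 symbol per animal and conditions as deposited. Circles and squares (R07110 and R12016) lie left of 0 except for BST2 in R07110, diamonds (R14143) are spread around -0.26, and triangles (R02046) lie mostly right of 0.

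**Figure D4:**
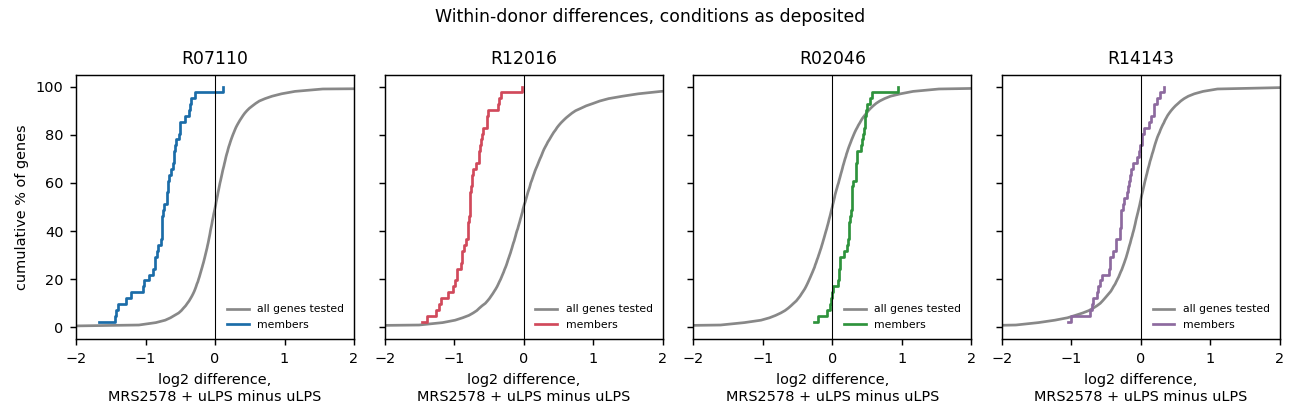
Cumulative percentage of the 41 ISGs (colored steps) and of all genes tested (grey) against the within-animal log2 difference, 1 panel per animal. The ISG curve is left of the grey curve in R07110, R12016 and R14143 and right of it in R02046 as labelled.

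Tested across all genes with the animal as a block (edgeR's quasi-likelihood F-test, Benjamini-Hochberg adjustment over 12131 genes), no ISG passed an adjusted p of 0.05 with the deposited labels. The background was 0%, as no gene of the series was called either with these labels. The study itself reported genes past a false discovery rate of 0.05 with edgeR, and its listed counts carry R02046 in the opposite assignment. It does not state whether the animal was a block. With R02046 exchanged, 75 genes were called here. All 41 ISGs passed the filter on low counts. All 41 had a fitted log2 fold change below 0, from -0.91 for ISG15 to -0.02 for ADAR, with a median of -0.38, whereas 52.1% of all genes were below 0 with a median of -0.01. At an unadjusted p under 0.05, 11 ISGs were lower (26.8%), against 2.44% of all genes tested, and the lowest adjusted p among ISGs was 0.878. DESeq2 and edgeR's likelihood ratio test also called 0 ISGs. With R02046 exchanged the median was -0.48, and 2 ISGs, IFI27 and XAF1, passed the threshold as lower, against 0.519% of all genes. At an unadjusted p under 0.05, 34 ISGs were then lower (82.9%), against 9.59% of all genes. Without R02046 the median was -0.58 and no ISG passed, the lowest adjusted p being 0.120, and 32 ISGs (78.0%) were lower at an unadjusted p under 0.05, against 7.86% of all genes. The calls with R02046 exchanged depended on single animals: 30 ISGs passed when R14143 was left out (all genes: 7.57%), and 0 when R07110 or R12016 was left out. They also depended on the test, as 24 ISGs passed with DESeq2 (all genes: 4.81%) and 21 with edgeR's likelihood ratio test (all genes: 5.08%) in the exchanged assignment.

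The ISG15 system attaches the ubiquitin-like protein ISG15 to other proteins, with HERC5 as the main human ligase and HERC6 as its relative. ISG15 had the lowest fold change of all ISGs as labelled and without R02046, whereas ZBP1 was lowest with R02046 exchanged. ISG15 was at 289.7, 1062, 133 and 235 CPM with uLPS alone in R07110, R12016, R02046 and R14143, and at 108, 404, 158 and 116 CPM with MRS2578. The lowest values were those of R07110 and R14143 with MRS2578, and the library of R12016 with MRS2578 still exceeded all libraries of the other animals. The log2 fold change was -0.91 (SE 0.28, adjusted p = 0.878, edgeR's quasi-likelihood test), -1.03 with R02046 exchanged (SE 0.19, adjusted p = 0.0599) and -1.28 without R02046 (SE 0.12, adjusted p = 0.120). HERC5 was at 71.4, 244, 31.6 and 33.3 CPM with uLPS alone and at 41.9, 157, 38.2 and 28.9 CPM with MRS2578. HERC6 ranged from 61.8 to 209.7 CPM with uLPS alone and from 62.6 to 121 CPM with MRS2578. USP18, the protease that removes ISG15 and dampens interferon receptor signaling, had no symbol in the count data but was paired with ENSMMUG00000003272 by the reference gene names. It was not counted among the 41. This gene was at 200.4, 395, 95.3 and 118 CPM with uLPS alone and at 108, 172, 99.6 and 92.4 CPM with MRS2578, with R12016 highest in each condition.

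IFIT proteins bind viral RNA that lacks the marks of host messenger RNA and block its translation. The 4 IFIT genes, which lie next to each other on chromosome 9, were each lower in 3 animals when MRS2578 was present and higher in R02046, with a median log2 fold change of -0.54 (-0.63 exchanged, -0.78 without R02046). IFIT2 was at 344, 1144, 152 and 158 CPM with uLPS alone and at 169, 586, 163 and 103 CPM with MRS2578. IFIT3, which stabilizes IFIT1, was at 615, 1382, 412 and 457 CPM with uLPS alone and at 343, 808, 500.3 and 335 CPM with MRS2578. The values of R12016 stood above those of the other animals in both conditions for IFIT1, IFIT2, IFIT3 and IFIT5. IFIT5 had the lowest fold change of the family: 72.0, 185, 27.0 and 44.2 CPM with uLPS alone, and 26.5, 91.7, 36.6 and 27.3 CPM with MRS2578 (log2 fold change -0.70, SE 0.28). IFIT1 differed by -0.82 in R07110 and -0.86 in R12016, but by only -0.02 in R14143 and 0.11 in R02046 on the log2 scale.

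MX1 and MX2 are dynamin-like GTPases that trap viral nucleocapsids, and GBP3 belongs to the guanylate-binding proteins that attack membranes of intracellular pathogens. MX1 was at 1366, 2295, 783 and 1119 CPM with uLPS alone and at 753, 1356, 998 and 877 CPM with MRS2578. The log2 difference was -0.86 in R07110, -0.76 in R12016 and -0.35 in R14143, and in R02046 it was 0.35. MX2 ranged from 460.0 to 1366 CPM with uLPS alone and from 453 to 954 CPM with MRS2578. GBP3, the only one of 5 listed guanylate-binding proteins with a symbol in the data, was at 1012, 2199, 548 and 592 CPM with uLPS alone and at 543, 1029, 778 and 447 CPM with MRS2578. Its log2 fold change was -0.48 (SE 0.26), -0.73 with R02046 exchanged (SE 0.13, adjusted p = 0.0599, edgeR) and -0.80 without R02046 (adjusted p = 0.166).

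The OAS enzymes make 2′-5′ oligoadenylate, which activates the nuclease RNase L, whereas OASL lacks this activity and enhances RIG-I signaling. OAS1, OAS2 and OAS3 are adjacent on chromosome 11. OAS1 was at 54.4, 289, 30.3 and 19.3 CPM with uLPS alone and at 22.3, 121, 44.4 and 15.0 CPM with MRS2578, with R12016 far above the others in both conditions. OAS2 was at 957, 1770.3, 399 and 472 CPM with uLPS alone and at 492, 996, 531 and 487 CPM with MRS2578. In contrast to R07110 and R12016, OAS2 and OAS3 were not lower with MRS2578 in R14143 (differences of 0.05 and 0.20 on the log2 scale). OASL was lower in all 4 animals as labelled, at 157, 396, 80.7 and 129 CPM with uLPS alone and at 121, 274, 76.3 and 109 CPM with MRS2578, with a log2 fold change of -0.31 (SE 0.10).

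Among sensors and editors of nucleic acids, the 7 genes found were lower with MRS2578 in R07110 and R12016 and higher in R02046, and 5 of 7 were lower in R14143. ZBP1, a sensor of Z-form nucleic acids that can trigger necroptosis, had the most extreme differences in 3 animals although it was among the ISGs with the lowest counts. It was at 7.71, 33.0, 4.06 and 6.81 CPM with uLPS alone and at 2.35, 11.9, 7.90 and 4.59 CPM with MRS2578. The corresponding within-animal differences were -1.67, -1.46, 0.94 and -0.56, and the fitted log2 fold change was -0.79 (SE 0.41), or -1.22 with R02046 exchanged (SE 0.21, adjusted p = 0.0547, edgeR). IFI16, a sensor of DNA, was at 597, 754, 355 and 444 CPM with uLPS alone and at 397, 498, 379 and 400.1 CPM with MRS2578. DDX58, which encodes the RNA sensor RIG-I, and its relative DHX58 (LGP2) had log2 fold changes of -0.39 (SE 0.19) and -0.41 (SE 0.20). The kinase PKR (EIF2AK2) and the RNA editor ADAR had the smallest differences of this group, with log2 fold changes of -0.08 (SE 0.16) and -0.02 (SE 0.16), and were higher with MRS2578 in both R02046 and R14143.

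PARP9, PARP12 and PARP14 belong to the ADP-ribosyltransferase family, and DTX3L is the ubiquitin ligase that partners with PARP9. All 4 were lower in R07110 and R12016 and higher in R02046, and 2 of 4 were lower in R14143. PARP14 was at 349.8, 643, 185 and 227 CPM with uLPS alone and at 259, 514, 226 and 286 CPM with MRS2578, with both libraries of R12016 above all those of the other animals. Its log2 fold change was -0.04 (SE 0.16), -0.18 with R02046 exchanged and -0.14 without R02046. DTX3L (log2 fold change -0.38, SE 0.19) and PARP9 (-0.26, SE 0.21) overlap on opposite strands of chromosome 2 in the RefSeq annotation, and as the strand setting of the counting is not given, their reads may not be fully separated.

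The restriction effectors act on viral particles and replication. CMPK2, a mitochondrial nucleotide kinase, and RSAD2 (viperin), which makes a chain-terminating nucleotide, start 7774 bases apart on opposite strands of chromosome 13. CMPK2 was at 146, 210.2, 48.7 and 53.8 CPM with uLPS alone and at 55.5, 90.5, 61.5 and 35.8 CPM with MRS2578. RSAD2 was at 62.3, 127, 30.4 and 20.3 CPM with uLPS alone and at 26.7, 55.2, 32.2 and 16.7 CPM with MRS2578. Both genes were thus more than 1 log2 unit lower in R07110 and in R12016, with smaller differences in R14143 (-0.59 for CMPK2 and -0.28 for RSAD2). BST2 (tetherin), which holds budding virions at the cell surface, was at 604, 820.2, 707 and 609 CPM with uLPS alone and at 654, 809, 688 and 495 CPM with MRS2578. It was the only ISG that was not lower in R07110, and its log2 fold change was -0.06 (SE 0.11), -0.04 with R02046 exchanged (SE 0.10) and -0.07 without R02046 (SE 0.12). The exonuclease ISG20 was lower in all 4 animals as labelled (differences of -0.51, -0.995, -0.27 and -0.44). SAMD9 and SAMD9L, paralogs that restrict poxviruses, were lower in R07110 and R12016 and higher in R02046 and R14143. PLSCR1, a membrane phospholipid scramblase, differed from nearly all other ISGs in that R07110, not R12016, was highest, at 97.6 CPM with uLPS alone against 34.8 CPM.

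Of the other interferon-induced genes, IFI27 and XAF1 were the ISGs called with R02046 exchanged. IFI27, a small mitochondrial protein, was at 359, 927, 154 and 468 CPM with uLPS alone and at 175, 477, 198 and 226 CPM with MRS2578. It was lower by about the same amount in R07110, R12016 and R14143 (-1.03, -0.96 and -1.05 on the log2 scale) and higher by 0.36 in R02046. Its log2 fold change was -0.68 as labelled (SE 0.25, adjusted p = 0.878, edgeR's quasi-likelihood test), -0.85 with R02046 exchanged (SE 0.13, adjusted p = 0.0419) and -1.02 without R02046 (SE 0.10, adjusted p = 0.120). XAF1, which promotes apoptosis by opposing the caspase inhibitor XIAP, was at 79.2, 158, 42.9 and 87.6 CPM with uLPS alone and at 43.5, 92.3, 59.8 and 63.7 CPM with MRS2578. Its log2 fold change was -0.42 as labelled (SE 0.22, adjusted p = 0.878, edgeR), -0.65 with R02046 exchanged (SE 0.10, adjusted p = 0.0458) and -0.70 without R02046 (adjusted p = 0.138). The ISG of highest level, IFI6, was at 2208, 3254, 1859 and 2110.4 CPM with uLPS alone and at 1491, 2078, 1869 and 1301 CPM with MRS2578, a log2 fold change of -0.48 (SE 0.17). Of the 8 genes of this group, all were lower in R07110 and R12016, 6 in R14143 and 3 in R02046.

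**Figure D5:**
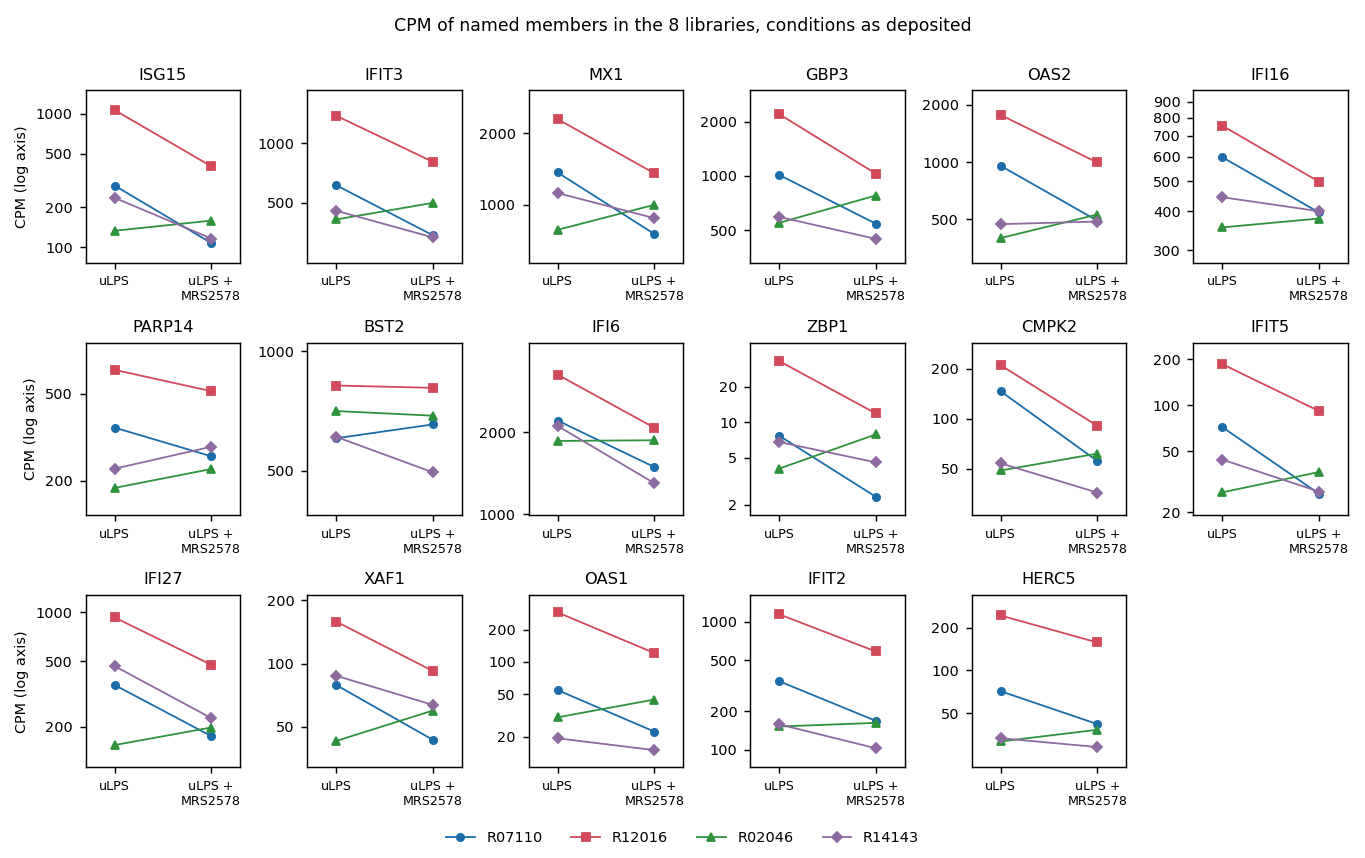
CPM (log axis) of 17 ISGs with uLPS alone and with MRS2578, conditions as deposited, with 1 line per animal. Lines of R07110 and R12016 go down except that of R07110 for BST2, those of R02046 mostly go up, and R12016 is highest within each condition in every panel.

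Levels of ISGs differed between animals. R12016 had the highest mean log2 CPM over both conditions for 39 of 41 ISGs (all but PLSCR1 and PARP12), against 28.2% of all genes tested, and for 25 ISGs its library with MRS2578 was still above the uLPS libraries of the other 3 animals (all genes: 26.5%). The lowest animal was R02046 for 23 ISGs and R14143 for 16. The range of the means of the animals was 1.35 log2 units in the median ISG, against 0.56 in the median of all genes, and went from 0.37 for PARP12 to 3.45 for OAS1. The next widest were IFIT2 (2.68) and HERC5 (2.66). In an F-test between animals with the condition in the model (edgeR's quasi-likelihood test), 15 of 41 ISGs passed an adjusted p of 0.05 (36.6%), against 7.35% of all genes tested. Among these were OASL (adjusted p = 0.00359), HERC5 (0.00595), IFIT2 (0.00835), IFIT1 (0.00988) and OAS1 (0.0159). With R02046 exchanged, 33 of 41 ISGs passed, against 18.9% of all genes. Each animal was a single preparation, so that the animal, its culture and its age and sex cannot be told apart.

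The sizes of the differences with MRS2578 were compared between animals. Across the 41 ISGs, the within-animal differences of R07110 and R12016 had a Pearson correlation of 0.85 (Spearman 0.71), against a Pearson correlation of 0.64 across all genes tested. Those of R14143 correlated at 0.50 with R07110 and 0.47 with R12016, against 0.04 and -0.01 across all genes. R02046 as labelled correlated at -0.47 with R07110, -0.35 with R12016 and 0.00 with R14143, against -0.30, -0.25 and -0.02 across all genes. These are descriptions over genes, which are not independent replicates, and each animal's difference contains the noise of its own pair of libraries. The median log2 fold change was -0.34 in the 19 ISGs with an ISRE match and -0.39 in the 22 without, as labelled, and -0.54 and -0.60 without R02046. As the 22 may hold an ISRE that the search missed, this split does not separate ISGs with an ISRE from ISGs without one.

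Genes upstream of ISGs were summarized from a list of 27 interferon signaling genes, 24 of which passed the filter. None passed an adjusted p of 0.05 under the deposited labels, the exchanged assignment or without R02046. An unadjusted p under 0.05, in either direction, was reached by 4, 13 and 10 of 24, respectively, against 5.14%, 16.4% and 13.6% of all genes. As labelled, 21 of 24 had a log2 fold change below 0, with a median of -0.16 (all genes: 52.1% below 0, median -0.01). With R02046 exchanged, 22 of 24 were below 0, with a median of -0.24 (all genes: 49.8% below 0). IRF7, the factor that amplifies interferon production and is itself an ISG, was at 90.9, 143, 35.8 and 63.6 CPM with uLPS alone and at 45.8, 68.1, 31.6 and 45.0 CPM with MRS2578, and was lower in all 4 animals as labelled (log2 fold change -0.69, SE 0.16). In R02046 its log2 difference was -0.18, which turns to the opposite sign with the libraries exchanged, for which the log2 fold change was -0.62 (adjusted p = 0.176, edgeR). As labelled, the adaptors TICAM1 and TICAM2 differed in opposite directions, with log2 fold changes of -0.37 (SE 0.14) and 0.26 (SE 0.11). With R02046 exchanged these were -0.42 (SE 0.11) and 0.16 (SE 0.13). The factor IRF1 had a log2 fold change of -0.46 as labelled (SE 0.19) and -0.70 without R02046 (SE 0.11). With R02046 exchanged it was -0.60 (SE 0.11), with the lowest adjusted p of these genes (0.0599, edgeR's quasi-likelihood test). IFNB1, which encodes interferon beta, did not pass the filter and was not tested. It was close to the limit of detection, with 17, 7, 1 and 0 counts with uLPS alone and 0, 5, 0 and 0 counts with MRS2578. In the libraries without IFNB1 counts, a count of 0 allows up to 0.127 to 0.215 CPM. Apart from the 17 and 0 counts of R07110, the pairs could not be told apart at this depth, 16 h after uLPS.

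Markers of cell types were set beside these results, since fewer cells of a type and less RNA per cell cannot be told apart in bulk libraries. The summed level of 13 microglia and macrophage markers was 4885 to 6318 CPM with uLPS alone and 4388 to 5492 CPM with MRS2578. In each animal this sum moved in the direction of most ISGs. It fell with MRS2578 in R07110 (5382 to 4759 CPM), R12016 (6318 to 5220 CPM) and R14143 (4885 to 4388 CPM). In R02046 it rose (4904 to 5492 CPM). Single markers did not all follow the sum. In R12016, C1QB (1211 to 726 CPM) and C1QC (953 to 659 CPM) fell, while ITGAM (477 to 537 CPM), AIF1 and TREM2 rose. CSF1R, ITGAM and PTPRC were slightly higher with MRS2578 in R14143. TYROBP went against the sum in R07110 (165 to 200 CPM) and in R02046 (227 to 168 CPM). The 5 oligodendrocyte markers found summed to 238 to 407 and 223 to 304 CPM, mostly from CNP and MBP, while MOG and MOBP stayed below 1 CPM. Astrocyte markers summed to 45.9 to 151 and 57.6 to 128 CPM, and endothelial markers to 155 to 239 and 157 to 292 CPM, with CLDN5 and CDH5 below 1 CPM. Mural and fibroblast markers summed to 85.8 to 986 CPM with uLPS alone and 190 to 399 CPM with MRS2578, with the highest value in the uLPS library of R14143. Within animals, this sum was lower with MRS2578 in R14143 (986 to 365 CPM). It was higher in R07110 (125 to 193 CPM), R12016 (85.8 to 190 CPM) and R02046 (319 to 399 CPM). The part of these shifts in the ISG values was not tested.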

How the data were processed

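Whole-number counts per Ensembl gene were deposited for 8 RNA libraries of primary microglia, unnormalized. According to the methods of the study, the authors made directional poly(A) libraries, trimmed reads with fastp 0.20, aligned them to Mmul_10 with STAR 2.5.4, sorted them with SAMtools 1.10 and obtained counts of unique exonic reads with HTSeq 0.11.0. The submitters' processing notes name Trimmomatic 0.30, TopHat2 2.0.14, SAMtools 1.3 and HTSeq 0.6.1p1 instead. Strand setting and annotation release are not given in the sources used here. As only unique reads were counted, any reads shared by related ISGs (such as within the IFIT, OAS, MX or guanylate-binding protein families) were left out. How many there were was not measured. M-CSF is given as 10 ng/mL in the labels and differs in the methods.

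Counts were analysed in R 4.3.3 with edgeR 4.0.16 (TMM, filterByExpr with a minimum count of 10, quasi-likelihood F-test with the animal as a block, Benjamini-Hochberg adjustment at 0.05) and DESeq2 1.42.0. A prior count of 2 was added for log2 CPM. The animal is a block because both libraries of a pair come from the same animal; deviations from the condition means correlated at 0.458 to 0.602 within animals. With the block, p-values for MRS2578 set the mean difference against its spread between the pairs fitted, 4 unless an animal was left out. Those between animals set differences among animals against the spread left within animals after the condition effect. Both draw on spread estimated over all genes. No 2 libraries were duplicates (chi-square per degree of freedom at least 20.6). Rows without a symbol (5.97% to 7.66% of counts) are genes and were kept. On simulated counts with 200 genes changed 3-fold, alike in every animal, 199 were recovered among 206 calls over 12241 genes. Changes as small as those of the ISGs, or unlike between animals, were not simulated, so this recovery gives no sensitivity for them. Intervals and limits of detection (3 counts) cover counting error only.

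The members and lists were chosen with earlier results of these data known. ISGs described in full were the one of highest mean CPM in each role group, the 5 with the lowest fold changes (none was above 0), those called in either assignment, and the 3 with the widest range between animals; the others were picked after their values were seen. Promoters and exon lengths are from RefSeq for Mmul_10. Alternatives were other scaling, filters and tests, no block, each animal left out, and R02046 exchanged; tests of the exchanged assignment other than the main one, and the earlier quasi-likelihood estimation, were chosen after seeing the data.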

Additional observations from a re-analysis of the deposited data

Results flagged for a closer look

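In 123 groups of 4 values (41 ISGs, levels in each condition and within-animal differences), 5 had a value farther from the others than Dixon's criterion allows, and chance flags about 1 group in 20. For IFI27 the difference between conditions in R02046 as labelled, 0.36 on the log2 scale, stood apart from about -1 in the other animals. With MRS2578, the log2 CPM of OAS2 in R12016 (9.96) and of ISG20 in R12016 (5.66) were above the other animals, that of PARP12 in R02046 (7.22) was above the others, and that of SAMD9L in R07110 (8.34) was below the others.

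Further, 8 ISGs were lower with MRS2578 in both males and higher in both females as labelled (19.5% of ISGs, against 10.9% of all genes). Opposite directions in the sexes, either way, were found in 23.7% of all genes. The mean difference of the females minus that of the males, on the log2 scale, was 1.12 for OAS2, 1.095 for OAS3, 0.72 for EIF2AK2, 0.85 for SAMD9, 1.01 for SAMD9L, 0.94 for PARP9, 0.69 for PARP14 and 0.62 for ADAR. The difference between the sexes was not tested, and it rests on R02046: with its libraries exchanged, R02046 was lower with MRS2578 for each of these 8 genes.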

How the results depend on the processing

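Medians of the ISG log2 fold changes were negative under every alternative run, from -0.23 to -0.58 when 1 animal was left out as labelled, -0.48 with the replicate block removed, and -0.41 to -0.60 when 1 animal was left out with R02046 exchanged. With the deposited labels and all 4 animals, 0 ISGs passed under each alternative, and DESeq2 called 1 gene and the likelihood ratio test 5 genes of the whole series. With R02046 exchanged, 75 genes and 2 ISGs passed, against 616 and 21 with the likelihood ratio test, 583 and 24 with DESeq2, 39 and 0 with edgeR's earlier quasi-likelihood estimation, and 0 and 0 without the block. Leaving out 1 animal in that assignment gave 0 to 918 genes and 0 to 30 ISGs. Without R02046, the likelihood ratio test called 477 genes and 21 ISGs, and the quasi-likelihood test none. ISGs lower in every animal numbered 3 as labelled (all genes: 6.49%), 27 with R02046 exchanged (13.2%), 3 to 30 when 1 animal was left out (10.4% to 19.8%) and 27 to 35 with both (16.1% to 24.1%); test, filter and block do not enter this number and were not run for it. Signs of single ISGs turned only when 1 animal was left out, never past the threshold: as labelled, the log2 fold change ran from -0.21 to 0.075 for EIF2AK2, -0.33 to 0.076 for SAMD9L, -0.16 to 0.10 for PARP14, -0.18 to 0.10 for ADAR (each above 0 without R07110 or without R12016) and -0.12 to 0.015 for BST2 (above 0 without R14143), and with R02046 exchanged from -0.09 to 0.043 for BST2. Between animals, 892 genes and 15 ISGs passed, against 2468 and 34 with DESeq2, 2773 and 31 with the likelihood ratio test, and 2288 and 33 with R02046 exchanged. The median level with uLPS alone, 205 CPM, was 145 to 243 CPM when 1 animal was left out. The causes of these changes were not tested. With 4 pairs, 1 of them in doubt, single ISGs are resolved poorly, and depth limits IFNB1, which was too low to be tested.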
